A study of Mus musculus with 20 samples.

Results

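The NRF2 antioxidant pathway was followed in mouse kidney through 10 genes picked by name: the transcription factor gene Nfe2l2, its inhibitor Keap1, and 8 genes of the antioxidant response, Hmox1, Nqo1, Gclc, Gclm, Txnrd1, Srxn1, Slc7a11 and Gpx4. They are 10 of the 39901 gene symbols found in either of the 2 count tables. Each of the 10 symbols was found in both tables, among 26608 named genes in one and 30809 in the other.

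Kidneys came from aged mice that had received a bone marrow transplant. In the first table, 6 animals with Control bone marrow were set against 6 with LOY bone marrow, which stands for loss of the Y chromosome in the blood lineage. In the second table, every animal had LOY bone marrow, and 4 given a control compound were set against 4 given ABT-263, a senolytic drug that inhibits proteins of the BCL2 family. ABT-263 with Control bone marrow was not analysed here. For strain, age in months, sex, dose, treatment time and the way the Y chromosome was removed, the sources used here give nothing. The loss of Y lies in the transplanted cells and their progeny, and the libraries were made from whole kidney. In such bulk tissue, fewer cells of a type and less RNA per cell cannot be told apart. The animals are numbered in the labels, with 1 kidney library per animal in each table; some numbers occur in both tables, and whether they stand for the same animals is not given.

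NRF2 is the protein made from Nfe2l2, and it is governed mainly at the protein level: KEAP1 holds it in the cytoplasm and hands it to a ubiquitin ligase for destruction. Oxidants and electrophiles modify cysteines of KEAP1, and the NRF2 that escapes pairs with a small MAF protein and binds antioxidant response elements near its target genes. Those targets make and recycle glutathione and thioredoxin, reduce quinones and break down heme. In the kidney the pathway is best known for its part in tolerance of ischemic and toxic injury of the tubule. Since its control is largely post-translational, the mRNA of Nfe2l2 is not a measure of NRF2 activity.

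The core of the antioxidant response element is written TGACNNNGC, or GCNNNGTCA when it is read from the opposite strand. It was searched on both strands of promoter windows reaching from 250 bases before to 50 after each annotated start, taken from RefSeq on GRCm38.p6. Windows were found for 8 of the 10 genes, all but Hmox1 and Gclc, and 4 of these 8 held a match. Over all genes with a window, 3781 of 27025 held one, or 14.0%. A gene can have several windows: by window, 4 of 13 for these genes held a match, and 12.4% of all 32851 windows did. The 4 matches are shown because they place the letters that NRF2 is known to read beside the genes measured here; capitals mark the 9 bases of the match.
Nfe2l2: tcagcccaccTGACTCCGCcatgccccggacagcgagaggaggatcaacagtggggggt
Gclm: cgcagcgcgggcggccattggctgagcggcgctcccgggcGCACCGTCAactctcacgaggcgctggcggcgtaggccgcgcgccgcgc
Txnrd1: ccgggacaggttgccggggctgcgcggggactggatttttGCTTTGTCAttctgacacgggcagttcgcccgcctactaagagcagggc
Srxn1: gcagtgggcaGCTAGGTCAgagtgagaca

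The Nfe2l2 stretch is chr2:75704855-75704913 on the minus strand, with its match on the gene's own strand from 240 to 232 bases before the start. In Gclm the stretch is chr3:122245383-122245471 on the plus strand, and the match lies on the opposite strand, 134 to 126 bases before the start. In Txnrd1 it is chr10:82859074-82859162 on the plus strand, inside the span of the annotated gene, and the match lies on the opposite strand, 92 to 84 bases before a start that is 1 of several for this gene. The Srxn1 stretch is chr2:152105542-152105570 on the plus strand, and its match lies on the opposite strand within the transcript, at bases 29 to 37. None of the 4 matches overlapped the letters TGACTCA, the AP-1 motif. Keap1, Nqo1, Slc7a11 and Gpx4 had no match in their windows, which says nothing about elements farther away, and a match is not evidence of binding. Among the other genes of the pathway listed further on, 17 of the 75 with a window held the motif.

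The libraries held 13332563 to 19386408 counts on named genes in the LOY table and 14587809 to 20791633 in the ABT-263 table. Values are in CPM, a gene's counts per 1000000 counts of its library, with library totals scaled by edgeR's trimmed mean of M-values. Kidney markers were plain in the Control group, with mean levels of 3565 CPM for Umod, 1914 for Lrp2, 680.3 for Slc12a3 and 579 for Aqp2, against 6.00 for the macrophage gene Adgre1. With LOY bone marrow, 176 of 14978 tested genes passed an adjusted p of 0.05 in edgeR's quasi-likelihood test, 167 of them higher. With ABT-263, 0 of 16956 passed, where 1002 had an unadjusted p under 0.05, and DESeq2 called 44 and voom with quality weights 11. LOY animal 8 held the highest value of the 12 kidneys for 28.6% of tested genes and the lowest for 29.9%, and control-compound animal 6 held the highest of 8 for 24.5% and the lowest for 24.2%. The library of LOY animal 8 also had the fewest genes with a count of the 12, 16639 where the others had 17829 to 18544.

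Compared per length of exon, the 10 genes spanned a wide range in Control kidneys. Levels are given here in RPKM, which is CPM per kilobase of exon, as the mean of 6 kidneys with the lowest and highest. Gpx4, which encodes the peroxidase that reduces lipid hydroperoxides in membranes, was highest at 584 RPKM (507 to 769.5). Its annotation also holds the copy Gpx4-ps2, so its counts could be shared with it. Gclc, the catalytic subunit of glutamate-cysteine ligase, stood at 99.8 (72.0 to 127), Nqo1, a quinone reductase, at 62.8 (49.1 to 77.7) and Gclm, the modifier subunit of the ligase, at 55.8 (52.1 to 62.0). Nfe2l2 at 28.6 (26.6 to 31.4), Txnrd1, cytosolic thioredoxin reductase, at 26.9 (25.1 to 28.6) and Srxn1, the sulfiredoxin that repairs overoxidized peroxiredoxins, at 26.6 (24.7 to 29.3) were not separated by their spread. Hmox1, which opens the heme ring to give biliverdin, iron and carbon monoxide, followed at 16.9 (13.7 to 25.2), and Keap1 at 9.47 (8.14 to 10.7). Slc7a11, the cystine carrier of system xc-, was lowest at 0.0230 (0.00557 to 0.0427), with 1 to 9 counts in a Control kidney. Ranges of neighbours overlapped between Gclc and Nqo1, between Nqo1 and Gclm, among Nfe2l2, Txnrd1 and Srxn1, and between Srxn1 and Hmox1, the last only through Control animal 3.

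The first question was whether the pathway differs in kidneys of mice with LOY blood. Of the 9 genes that passed the filter on low counts, 8 had a positive and 1 a negative log2 fold change, LOY against Control, with a median of 0.23. Over all tested genes 52.3% were positive, 47.7% were negative, and the median was 0.02. No gene of the 9 passed an adjusted p of 0.05 in edgeR, where 1.18% of all tested genes did, 1.11% as higher and 0.0601% as lower. At an unadjusted p under 0.05 edgeR counted 2 of 9, Hmox1 and Nqo1, both higher. That threshold was met by 22.8% of all tested genes, 13.5% as higher and 9.33% as lower, so the count is near the background. DESeq2 and voom with quality weights each called 1 of the 9, Hmox1, where they called 866 and 1062 of all 14978 tested genes. In 0 of the 9 did the groups separate without overlap, against 1.56% of all genes separated with LOY higher and 0.461% with LOY lower.

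Hmox1 had the smallest p of the set. Among Control kidneys its lowest, median and highest values were 24.0, 26.7 and 44.1 CPM, and among LOY kidneys 28.6, 46.7 and 59.1 CPM. Animals 5, 10, 14 and 18 of the LOY group lay above every Control kidney. LOY animals 8 and 9 lay within the Control range, and Control animals 3 and 17 reached into the LOY range. The means were 29.6 ± 7.47 CPM (SD, n = 6) and 44.8 ± 10.3 CPM (SD, n = 6), a fitted log2 fold change of 0.60 ± 0.18 (SE) with a 95% interval of 0.22 to 0.98. Its unadjusted p was 0.00421 and its adjusted p 0.105 in edgeR.

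The call on Hmox1 turned on the fit and on single kidneys. The adjusted p was 0.0377 in DESeq2, with a log2 fold change of 0.59, and 0.00359 in voom with quality weights, with 0.72. In edgeR it was 0.0246 without Control animal 3 (0.75 ± 0.16) and 0.0343 without LOY animal 8 (0.70 ± 0.15). These 2 kidneys lie nearest to the other group for this gene, so leaving either out had to widen the difference. Over 24 alternatives the fold change stayed positive, from 0.49 to 0.85, with an adjusted p from 0.000603 to 0.423, and 6 of the 24 passed. Those 6 were DESeq2, voom with quality weights and edgeR fits without Control animal 3, LOY animal 8 or both. The edgeR fits among them are no separate support.

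Nqo1 had the largest fold change of the 9. The Control kidneys had a lowest, median and highest value of 76.2, 94.9 and 121 CPM, and the LOY kidneys 103, 122 and 270 CPM. LOY animals 10, at 270 CPM, and 8, at 213 CPM, stood far above the rest, and the other 4 LOY kidneys lay at 103 to 125 CPM, close to or inside the Control range. The means of 97.5 ± 16.6 and 156 ± 69.4 CPM (SD, n = 6 each) gave a log2 fold change of 0.67 ± 0.23 (SE; 95% interval 0.18 to 1.17). In edgeR its unadjusted p was 0.0107 and its adjusted p 0.141. Without LOY animal 10 the value was 0.43 ± 0.19, and without both animals 8 and 10 it was 0.19 ± 0.12.

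Txnrd1 and Srxn1, which serve the thioredoxin and peroxiredoxin cycle, had positive values that rested largely on 1 kidney. Txnrd1 ran from 178 through a median of 191 to 202 CPM in Control kidneys and from 195 through 204 to 302 CPM in LOY kidneys. The top value belonged to LOY animal 10, with the next at 214 CPM. Its log2 fold change of 0.21 ± 0.11 (SE; adjusted p = 0.270, edgeR) became 0.08 ± 0.08 without that animal. Srxn1 ran from 69.5 through 75.0 to 82.7 CPM in Control and from 71.4 through 82.8 to 124 CPM in LOY kidneys, again with animal 10 on top. Its log2 fold change was 0.26 ± 0.12 (SE; adjusted p = 0.221, edgeR) with all kidneys and 0.13 ± 0.09 without animal 10.

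The genes of glutathione synthesis overlapped widely between the groups. For Gclc the lowest, median and highest values were 271, 373 and 479 CPM in Control kidneys and 283, 443 and 593 CPM in LOY kidneys, a log2 fold change of 0.23 ± 0.19 (SE; adjusted p = 0.455, edgeR). For Gclm they were 328, 348 and 390 CPM against 296, 400 and 449 CPM, or 0.16 ± 0.11 (SE; adjusted p = 0.396). Leaving out LOY animal 9, the highest for Gclc, gave 0.12 ± 0.18 for that gene, and leaving out Control animal 11, the lowest, gave 0.15 ± 0.19. Leaving out LOY animal 5, the highest for Gclm, gave 0.10 ± 0.12 for Gclm. Both genes had their lowest LOY value in animal 18. The 2 subunits did not keep a fixed proportion from kidney to kidney: the ratio of Gclc to Gclm per length was 1.38 to 2.23 over the Control and 1.30 to 2.64 over the LOY kidneys. Exons of Gclm overlap those of Gm17494 on the opposite strand over 296 bases and those of Gm6061 on the same strand over 244, and whether counting used the strand is not given in the sources used here.

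Slc7a11, which brings in the cystine for that synthesis, was too low to be tested with Control and LOY kidneys. It had 29 counts over the 6 Control kidneys, from 1 to 9 each, and 58 over the 6 LOY kidneys, from 0 to 20 each. Animals 8, 10 and 18 of the LOY group held 15, 17 and 20 counts, while animal 9 had 0, which allows up to 0.213 CPM at 3 counts. Without the filter its log2 fold change was 0.81 ± 0.74 (SE; adjusted p = 0.521, edgeR), so no difference was detectable at this depth.

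Gpx4 values overlapped between the groups. They ran from 875 through a median of 946 to 1327 CPM in Control kidneys and from 816 through 1105 to 1827 CPM in LOY kidneys, and LOY animal 8 alone exceeded Control animal 3, which held the Control maximum. The log2 fold change was 0.23 ± 0.19 (SE; adjusted p = 0.452, edgeR), and 0.06 ± 0.15 without LOY animal 8.

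At the head of the pathway neither gene stood out. Nfe2l2 lay at 101, 106 and 119 CPM (lowest, median, highest) in Control kidneys and at 74.4, 114 and 139 CPM in LOY kidneys, which spread to both sides of the Control range. Its log2 fold change was 0.07 ± 0.13 (SE; 95% interval -0.21 to 0.35; adjusted p = 0.756, edgeR). Keap1 lay at 38.2, 45.1 and 49.97 CPM against 29.6, 43.3 and 49.5 CPM, with a log2 fold change of -0.08 ± 0.12 (SE; 95% interval -0.34 to 0.17; adjusted p = 0.669). Without LOY animal 10, the lowest of the 12 for Keap1, it was -0.02 ± 0.10, and without LOY animal 8 it was -0.14 ± 0.11. Nfe2l2 had 0.17 ± 0.09 without LOY animal 8, its lowest kidney, and -0.01 ± 0.13 without LOY animal 10, its highest. Exons of Keap1 overlap those of the antisense gene Gm16754 over 510 bases. The intervals leave room for changes of either sign in both genes.

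**Figure D1:**
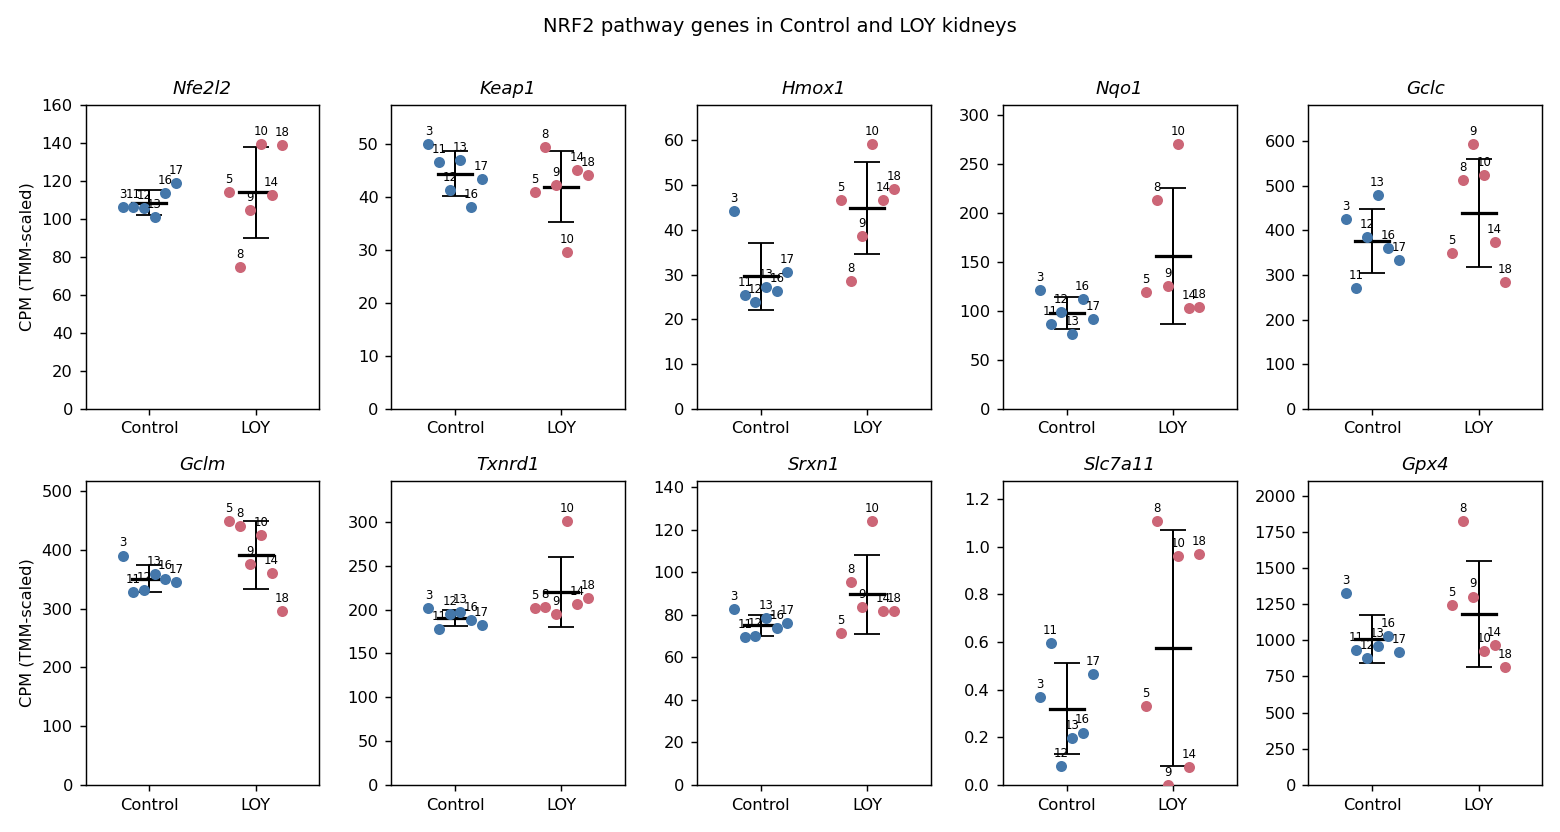
CPM of the 10 genes in each Control and LOY kidney, with 1 panel per gene, the animal number over each point, and the mean with SD as bars. LOY animal 10 is at 270 CPM for Nqo1 and 302 CPM for Txnrd1, and Control animal 3 is at 44.1 CPM for Hmox1.

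Animal numbers were uneven between these groups: 4 of 6 LOY animals but 1 of 6 Control animals had a number of 10 or less. With the number above 10 as a term in the fit, the log2 fold change was 0.52 for Hmox1, 0.31 for Nqo1, 0.16 for Txnrd1, 0.16 for Srxn1, 0.0013 for Gclm, -0.024 for Gclc and -0.052 for Gpx4, with adjusted p from 0.423 for Hmox1 upward. In animals above 10 alone, 5 Control and 2 LOY kidneys, Hmox1 had 0.84 with an adjusted p of 0.000603 and Nqo1 0.16 with 0.580. The other 5 of these genes had lower values there than over all kidneys. Animals above 10 alone also leave out Control animal 3 and LOY animal 8, the kidneys nearest to the other group for Hmox1. What the animal number stands for is not given, and its part in the comparison cannot be told apart from that of single kidneys.

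LOY animal 10 stood out among these genes. It held the highest value of the 12 kidneys for 5 of the 9 tested genes, Nfe2l2, Hmox1, Nqo1, Txnrd1 and Srxn1, and the lowest for Keap1. Over all tested genes it was highest for 14% and lowest for 13.7%. It also had the lowest summed level of 11 proximal tubule markers, 6684 CPM where the other LOY kidneys had 9400 to 13270 and the Control kidneys 12720 to 16730 CPM. The sum of 10 tubular injury markers was 9101 CPM in it, the highest of the 12. The largest parts of the injury sums were Spp1 and Clu. Spp1 had means of 1660 CPM in Control and 3940 CPM in LOY kidneys, and Clu 470 and 827 CPM. Control animal 3, the Control kidney highest for Hmox1 and Gpx4, had the highest Control sum of injury markers, 3822 CPM against 1930 to 2377 in the others. It also had the highest Control sum of macrophage markers, 403 CPM, and the lowest Control sum of proximal tubule markers, 12720 CPM.

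Marker lists of other cells moved alongside the comparison. The 13 macrophage markers summed to 246 to 403 CPM in Control and 451 to 618 CPM in LOY kidneys. All 13 had positive values, 11 with an unadjusted p under 0.05 in edgeR. An adjusted p of 0.05 was passed by 5, among them Lyz2 (log2 fold change 1.21), Ctss (1.11) and C1qc (1.05). Of all tested genes 13.5% and 1.11% met those 2 thresholds as higher. Macrophages are known to make HMOX1 when they take up red cells. Of 7 T cell markers 6 were matched. All 6 had positive values with an unadjusted p under 0.05 in edgeR, and 3 passed after adjustment: Zap70 (1.44), Cd3g (1.62) and Cd3d (1.43). All 10 injury markers had positive values with an unadjusted p under 0.05 in edgeR. After adjustment 7 of 10 passed, with Cd44 (1.33), Vcam1 (1.30) and Spp1 (1.25) first by p. The injury sum ran from 1930 to 3822 CPM in Control kidneys against 3760 to 9101 CPM in LOY kidneys. All 11 proximal tubule markers had negative values, and 0 of 11 passed in edgeR, with 6 of 11 at an unadjusted p under 0.05. For the neutrophil list the sum was at most 3.18 CPM in either group. The part of these cells in the values of Hmox1 and Nqo1 was not tested.

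Patterns most like that of Hmox1 were sought among the 14395 genes whose mean reached 1 CPM. The measure was the mean absolute difference between the log2 CPM deviations of a pair of genes over the 12 kidneys, each scaled to its SD, and its median over the candidates was 1.1. The nearest were Serpinb6b at 0.277, a serine protease inhibitor gene, Kng1 at 0.291, which encodes kininogen, and Ptprc at 0.303, which encodes the leukocyte surface phosphatase CD45. The closest gene of the pathway set was Txnrd1 at 0.671, which ranked 1046. These kidneys share their group difference, their libraries and their depth, so the likeness is a description only.

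The second question was whether ABT-263 shifts the pathway in mice that all carry LOY blood. All 10 genes passed the filter here, and 9 had a negative and 1 a positive log2 fold change, ABT-263 against control compound, with a median of -0.17. Over all tested genes 50.6% were negative, 49.4% were positive, and the median was -0.00. None of the 10 passed an adjusted p of 0.05 in edgeR, as for all tested genes, of which 0% passed. In edgeR 2 of 10, Txnrd1 and Nqo1, had an unadjusted p under 0.05, both lower. Of all tested genes 5.91% met it, 2.96% as lower and 2.95% as higher. DESeq2 called 1 of the 10, Txnrd1, and voom with quality weights 0, where they called 44 and 11 of all 16956 tested genes. In 1 of the 10, again Txnrd1, every ABT-263 kidney lay below every control-compound kidney, as was so for 2.25% of all tested genes, with 2.04% separated the other way.

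Txnrd1 measured 370, 343, 333 and 290 CPM in control-compound animals 6, 8, 9 and 10. With ABT-263 it measured 252, 258, 232 and 261 CPM in animals 15, 16, 17 and 18. The groups did not overlap, and the gap lay between 290 and 261 CPM. The means of 334 ± 33.3 and 251 ± 13.0 CPM (SD, n = 4 each) gave a log2 fold change of -0.41 ± 0.09 (SE; 95% interval -0.61 to -0.21). In edgeR its unadjusted p was 0.000822 but its adjusted p 0.536. DESeq2 gave the same fold change with an adjusted p of 0.0140, and voom with quality weights gave -0.39 with 0.0781. Over the alternatives the value ran from -0.48 to -0.36, with an adjusted p from 0.0140 to 0.999.

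Nqo1 was spread more widely with the control compound than with ABT-263. It measured 203, 133, 134 and 98.0 CPM in control-compound animals 6, 8, 9 and 10, and 98.7, 93.2, 89.8 and 115 CPM in ABT-263 animals 15 to 18. Control-compound animal 10 lay among the ABT-263 kidneys, and animal 6 far above them. The log2 fold change was -0.52 ± 0.19 (SE; 95% interval -0.95 to -0.08), and -0.29 ± 0.12 without animal 6. With all kidneys edgeR gave an unadjusted p of 0.0242 and an adjusted p of 0.792.

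Hmox1 gave no direction that held against its spread. It measured 24.7, 65.8, 64.5 and 54.1 CPM with the control compound and 44.3, 74.3, 30.5 and 35.5 CPM with ABT-263, in the same animal order. Control-compound animal 6 held the lowest and ABT-263 animal 16 the highest value of all 8 kidneys. With all kidneys the log2 fold change was -0.18 ± 0.37 (SE; 95% interval -1.04 to 0.68; adjusted p = 0.961, edgeR). Leaving out those 2 animals gave -0.74 ± 0.13 with an adjusted p of 0.0191 in edgeR. They lie against the direction of the rest for this gene, so leaving them out had to widen the difference. That fit is therefore no support for a lower level with ABT-263.

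Srxn1 measured 132, 112, 113 and 121 CPM with the control compound and 99.2, 131, 83.3 and 101 CPM with ABT-263. ABT-263 animal 16 lay inside the control-compound range and the other 3 below it. The log2 fold change was -0.20 ± 0.13 (SE; adjusted p = 0.847, edgeR), and -0.33 ± 0.09 without animal 16 (adjusted p = 0.354).

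Glutathione synthesis genes showed no separation. Gclc measured 383, 406, 528 and 511 CPM with the control compound and 326, 616, 444 and 374 CPM with ABT-263, a log2 fold change of -0.05 ± 0.19 (SE; adjusted p = 0.978, edgeR). Gclm measured 278, 365, 362 and 383 CPM against 305, 323, 357 and 315 CPM, or -0.10 ± 0.11 (SE; adjusted p = 0.913). The highest Gclc value and the highest ratio of Gclc to Gclm per length, 3.19, belonged to ABT-263 animal 16, and the other 7 kidneys had ratios of 1.79 to 2.44.

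Slc7a11 had 88 counts in control-compound animal 6 and 28, 17 and 19 in animals 8, 9 and 10, against 13, 20, 17 and 19 with ABT-263. Apart from animal 6 the groups covered nearly the same range, and without that animal the log2 fold change went from -0.998 ± 0.55 to -0.07 ± 0.33 (SE; adjusted p = 0.847 and 0.959, edgeR). Gpx4, which uses glutathione against lipid peroxides, measured 663, 554, 545 and 544 CPM against 506, 555, 470.1 and 532 CPM. ABT-263 animal 16, at 555 CPM, lay above 3 of the 4 control-compound kidneys, and the log2 fold change was -0.16 ± 0.10 (SE; adjusted p = 0.847, edgeR).

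Single kidneys moved these values too. Without control-compound animal 6 the value was -0.09 ± 0.09 for Gpx4 and -0.19 ± 0.08 for Gclm, and without ABT-263 animal 16 it was -0.26 for Gclc.

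The regulators had intervals that held 0. Nfe2l2 measured 159.5, 144, 128 and 129.5 CPM with the control compound and 137.5, 121, 128 and 138.4 CPM with ABT-263, a log2 fold change of -0.10 ± 0.09 (SE; 95% interval -0.30 to 0.10; adjusted p = 0.891, edgeR). Keap1 measured 41.7, 47.7, 50.6 and 47.2 CPM against 50.7, 53.1, 45.6 and 48.2 CPM, with a log2 fold change of 0.08 ± 0.09 (SE; 95% interval -0.11 to 0.27; adjusted p = 0.912). Without control-compound animal 6 the values were -0.03 for Nfe2l2 and 0.03 for Keap1.

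**Figure D2:**
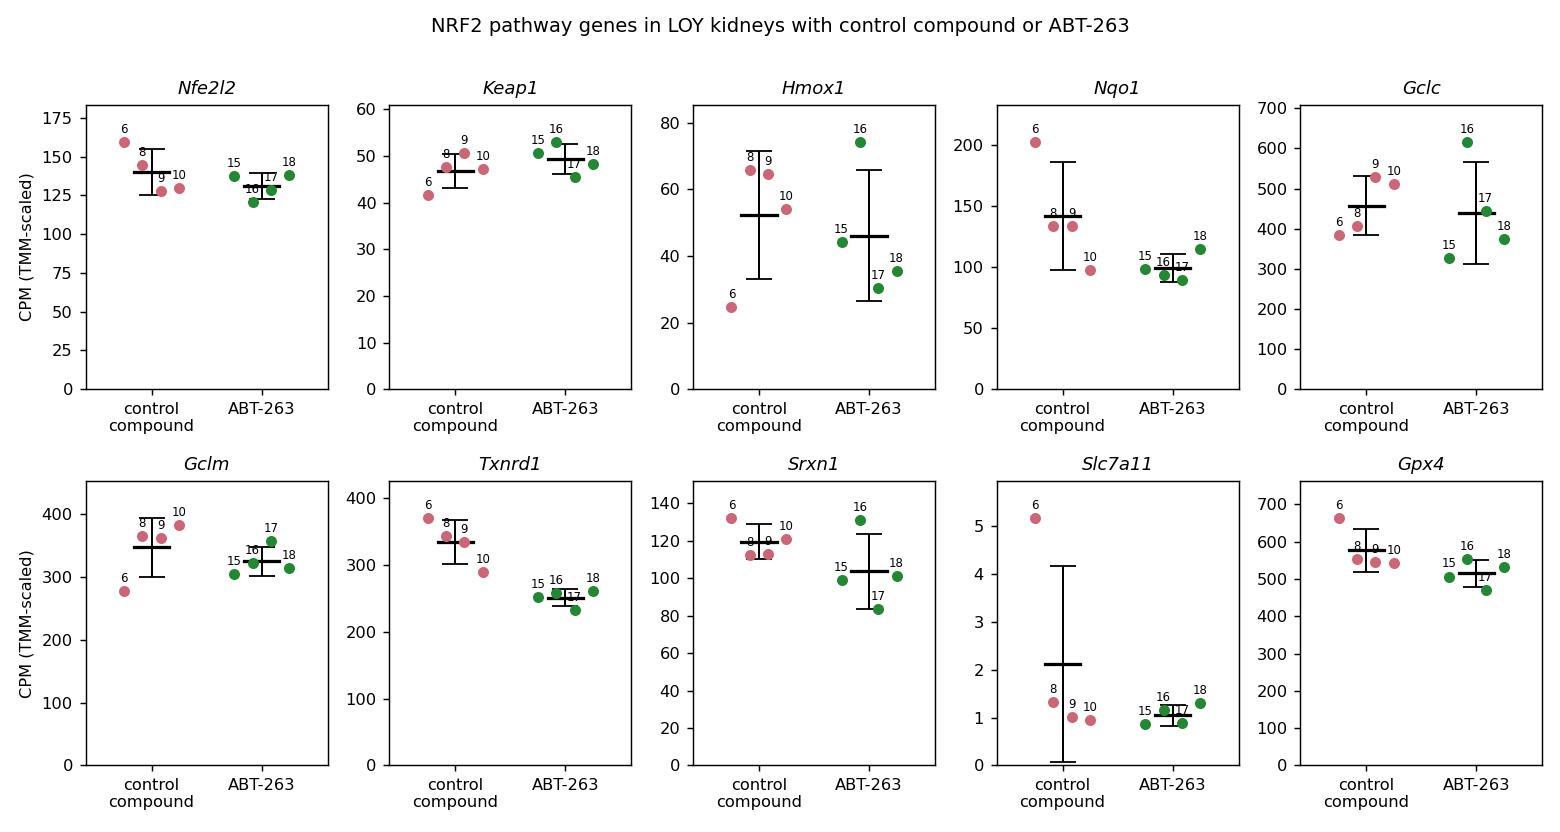
CPM of the 10 genes in each LOY kidney with control compound or ABT-263, with 1 panel per gene, the animal number over each point, and the mean with SD as bars. Txnrd1 is the gene without overlap, with 290 CPM as the lowest control-compound and 261 CPM as the highest ABT-263 value.

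Control-compound animal 6 held the highest value of the 8 kidneys for 6 of the 10 genes and the lowest for 3, and ABT-263 animal 16 the highest for 3, against 16.6% of all tested genes. ABT-263 animal 17 held the lowest for 4, against 10.2% of all tested genes. The tubular injury markers summed to 21370 CPM in ABT-263 animal 16, to 1940 to 2724 CPM in the other 3 ABT-263 kidneys and to 2830 to 4244 CPM with the control compound. Of the 10 injury markers 4 had positive and 6 negative values, and 0 passed in edgeR. The largest part of the injury sums was Spp1, with means of 2797 ± 478 CPM with the control compound and 5753 ± 8034 CPM with ABT-263 (SD, n = 4 each). Macrophage markers summed to 446 to 735 CPM with the control compound and 408 to 454 CPM with ABT-263; 12 of 13 had negative values, with a median log2 fold change of -0.40, and 0 passed in edgeR, with 5 at an unadjusted p under 0.05. Proximal tubule markers summed to 10100 to 11900 CPM and 8022 to 12420 CPM. Of the 11, 5 had positive and 6 negative values, and 0 passed in edgeR. B cell markers summed to 38.7 to 76.7 CPM with the control compound and 15.1 to 34.6 CPM with ABT-263, without overlap. Of the 4 tested, 3 had negative values and 1 a positive value. Cd79a (-1.63) and Jchain (-1.31) had the smallest p among them, while Cd79b had -0.26 and Ms4a1 0.21. Jchain alone had means of 50.6 and 20.5 CPM, so the sums largely follow that gene. All 7 T cell markers had negative values, with sums of 10.7 to 25.3 and 9.82 to 13.8 CPM, and all 6 tested erythroid markers positive values, with sums of 51.9 to 109 and 85.1 to 154 CPM. The largest part of the erythroid sums was Slc4a1, with means of 41.5 and 52.7 CPM, so the sums are not read here as a measure of red cells. In edgeR 0 markers of these 3 lists passed, with 2 B cell and 1 T cell marker lower at an unadjusted p under 0.05. What these markers contribute to the lower Txnrd1 values was not tested. Animals with the control compound are numbered 6 to 10 and those with ABT-263 15 to 18, so anything that goes with the number and the treatment cannot be told apart.

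The patterns nearest to that of Txnrd1 over these 8 kidneys, among 15499 candidates with a median distance of 1.07, were those of Jade3 at 0.113, Memo1 at 0.148 and Mrpl40 at 0.156. Jade3 encodes a subunit of a histone acetyltransferase complex, and Mrpl40 a protein of the mitochondrial ribosome. Of the pathway set the closest was Nqo1 at 0.417, which ranked 135.

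**Figure D3:**
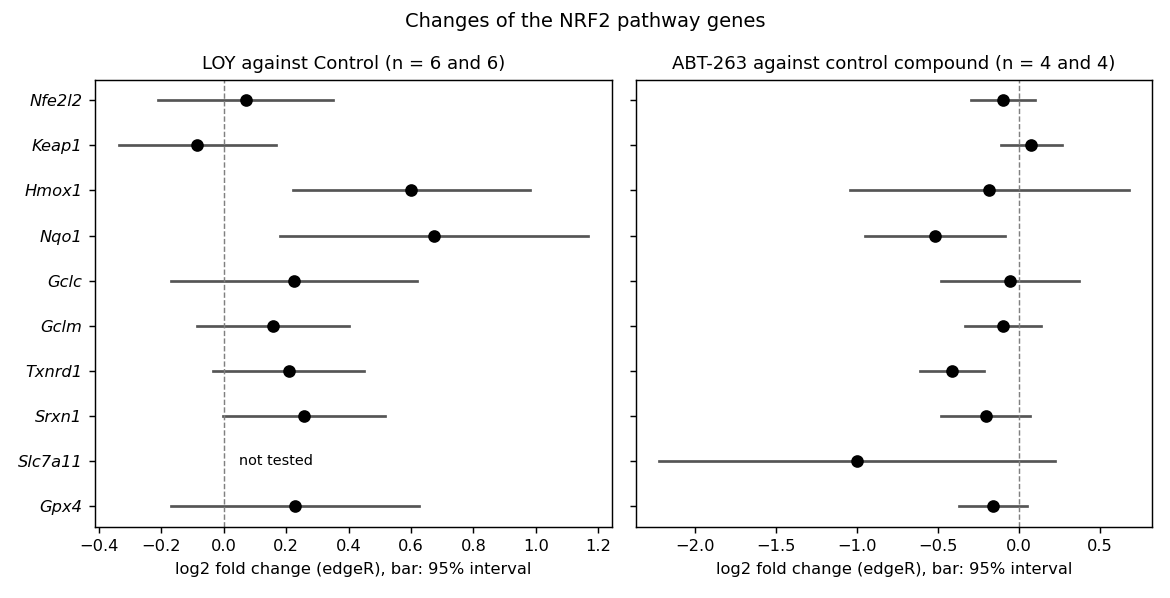
Log2 fold change of each gene in edgeR with its 95% interval, on the left LOY against Control and on the right ABT-263 against control compound; the axes differ in scale. On the left the intervals of Hmox1 and Nqo1 lie above 0, on the right those of Nqo1 and Txnrd1 lie below 0, and none passed after adjustment over all genes.

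The 2 comparisons came from separate tables, and no test across them was made. Side by side, Nqo1 had 0.67 with LOY against Control and -0.52 with ABT-263 against control compound, Txnrd1 0.21 and -0.41, Hmox1 0.60 and -0.18, and Srxn1 0.26 and -0.20 on the log2 scale. Keap1 had -0.08 and 0.08. These pairs of values are given as a description, and some animal numbers occur in both tables. The plot of deviations by kidney shows how far they follow single animals.

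**Figure D4:**
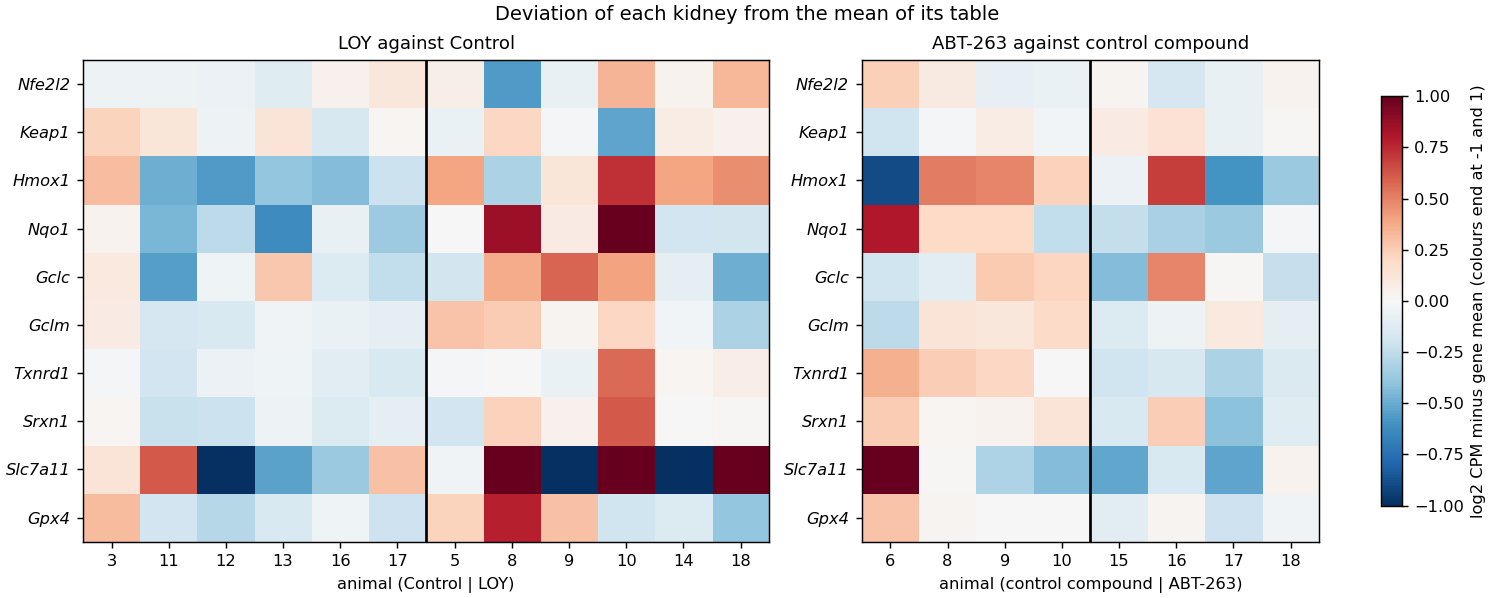
Log2 CPM of each gene in each kidney minus the mean of that gene over its table, with animals in columns, a line between the groups, and colours that end at -1 and 1. The column of LOY animal 10 is red for Hmox1, Nqo1, Txnrd1 and Srxn1 and blue for Keap1, and control-compound animal 6 is red for Nqo1 and Slc7a11 and blue for Hmox1.

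Beyond the 10 genes, 88 others tied to the pathway were taken in 8 groups: regulators of NRF2, glutathione enzymes, thioredoxins and peroxiredoxins, suppliers of NADPH, heme and iron genes, detoxification genes, ferroptosis genes and further antioxidant enzymes. With LOY against Control 86 were tested, 50 had positive values, and the median log2 fold change was 0.08. Over all tested genes 52.3% were positive. In edgeR 0 of 86 passed, where 1.18% of all tested genes did. At an unadjusted p under 0.05 edgeR counted 18 higher and 6 lower, against 13.5% and 9.33% of all tested genes. DESeq2 called 3 (Mt2, Osgin1, Ugt1a6b) and voom with quality weights 2 (Osgin1, Aifm2), where they called 866 and 1062 of all 14978 tested genes. The groups with the highest medians were the glutathione enzymes at 0.23, with 12 of 15 positive, and the NADPH suppliers at 0.16, with 5 of 6 positive. The regulators had the lowest, -0.14, with 9 of 12 negative.

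The gene of smallest p in each group is given with its values, and none of them passed in edgeR. Mt2, a metallothionein that binds metals, went from 67.7 to 122 CPM (log2 fold change 0.85 ± 0.25, adjusted p = 0.0975). Osgin1, an oxidative stress response gene, went from 98.9 to 163 CPM (0.72 ± 0.21, adjusted p = 0.105). Blvrb, a reductase that acts on products of heme breakdown, had 0.77 ± 0.25 (adjusted p = 0.126). Gsta1 had 2.22 ± 0.73 (adjusted p = 0.132), from 1.05 ± 1.23 to 4.87 ± 5.09 CPM, and it may share reads with its near-identical neighbour Gsta2. The others were Gch1 at 0.88, which makes a precursor of tetrahydrobiopterin, Txn1 at 0.50, the cytosolic thioredoxin, Rbx1 at 0.46, a subunit of the ubiquitin ligase that KEAP1 serves, and Me1 at -0.29, an NADPH-making malic enzyme.

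With ABT-263 against control compound, 87 of the 88 were tested, 65 had negative values, and the median was -0.10. Over all tested genes 50.6% were negative. In edgeR 0 of 87 passed, as for all tested genes, of which 0% passed. At an unadjusted p under 0.05 edgeR counted 1 higher and 6 lower, against 2.95% and 2.96% of all tested genes. DESeq2 called 1, Cbr3, and voom with quality weights 0, where they called 44 and 11 of all 16956 tested genes. The groups did not overlap for 7 of 87 with ABT-263 lower (Cbr3, Ephx1, Gstm1, Gstm4, Bach1, Sod1 and Prdx5) and for 1 with ABT-263 higher (Btrc), where 2.25% and 2.04% of all tested genes separated in those directions. Detoxification genes had the lowest median, -0.24, with 12 of 13 negative, and glutathione enzymes had -0.20, with 15 of 16 negative. Cbr3, a carbonyl reductase, went from 24.5 ± 12.4 to 8.34 ± 2.03 CPM (SD, n = 4 each) without overlap between the groups, a log2 fold change of -1.55 ± 0.33 (adjusted p = 0.566, edgeR). Gstm1, a glutathione transferase, had -0.48 ± 0.17 without overlap (adjusted p = 0.728), and Gpx1, the cytosolic glutathione peroxidase, -0.27 ± 0.09 (adjusted p = 0.728). Btrc, part of a second ubiquitin ligase that marks NRF2, had 0.27 ± 0.08 without overlap, with every ABT-263 kidney higher (adjusted p = 0.657). The genes of smallest p in the other groups were Tfrc at 0.29, the transferrin receptor, Ncoa4 at -0.11, Prdx2 at -0.10 and Tkt at 0.07.

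**Figure D5:**
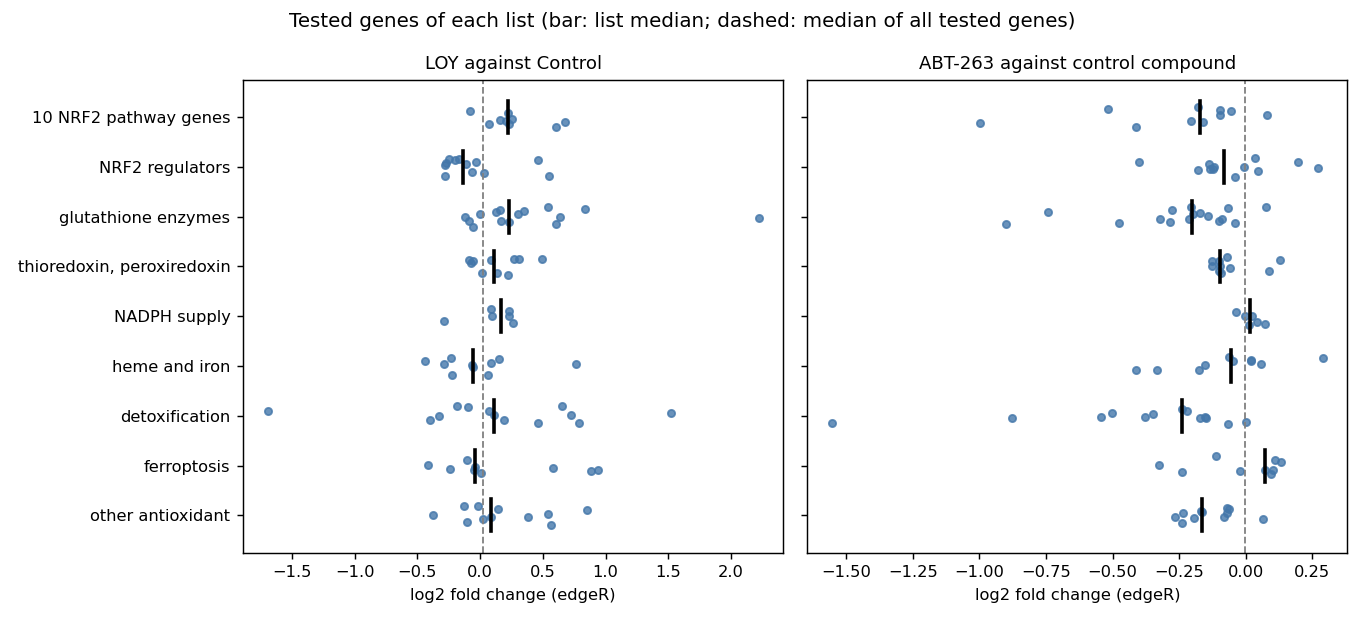
Log2 fold changes of the tested genes in the 10-gene set and in each of 8 further groups, 1 point per gene, with the group median as a bar and the median of all tested genes as a dashed line; the axes differ in scale. The 10-gene set has a median of 0.23 on the left and -0.17 on the right, and the glutathione enzymes 0.23 and -0.20.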

How the data were processed

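Gene counts were deposited by the authors, 1 table per comparison, from reads mapped to the mm10 build (per the submitters' processing notes); aligner, counting program, annotation and strand setting were not given in the sources used here. An entry of the LOY table without a gene (0.223% to 0.401% of counts) was left out. Counts were tested in edgeR 4.0.16 (R 4.3.3) by the quasi-likelihood test with TMM scaling, robust fits, filterByExpr (minimum count 10, minimum total 15) and Benjamini-Hochberg adjustment over all tested genes. Alternatives used DESeq2 1.42.0, voom with quality weights (limma 3.58.1), other scalings, filters and thresholds, an animal number above 10, and left-out kidneys. Exon lengths came from GENCODE on GRCm38. Replicates are separate animals per the labels, and no pair within a group agreed within sampling noise (30 and 12 pairs checked); pairs across groups or tables were not checked. Scripts were tested on simulated data. The 10 genes, the lists and the left-out kidneys were chosen with earlier results of these data known. Text names the 10 genes, the smallest p of each list where none passed, up to 3 markers that passed, tissue markers and the 3 nearest patterns; other genes were named because an alternative called them. The tables differ in their gene sets, so levels were not compared between them.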

Additional observations from a re-analysis of the deposited data

Results flagged for a closer look

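In 5 of the 40 sets of values checked (10 genes in 4 groups), 1 kidney stood apart from the rest of its group by Dixon's test, which chance alone does for about 1 in 20 sets. Control animal 3 had 44.1 CPM of Hmox1, with the next Control kidney at 30.6, and 1327 CPM of Gpx4, with the next at 1032. LOY animal 10 had 302 CPM of Txnrd1, with the next LOY kidney at 214. Control-compound animal 6 had 5.17 CPM of Slc7a11, with the next at 1.33, and 663 CPM of Gpx4, with the next at 554. These 5 values come from 3 animals, and their cause was not tested.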

How the results depend on the processing

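Of 216 LOY fold changes of the tested genes under alternatives, 202 kept their direction and side of the threshold, 8 reversed and 6 passed it, all 6 of Hmox1. Of 170 with ABT-263, 161 kept both, 6 reversed and 3 passed. No scaling moved the median of all genes by over 0.1. No paired analysis was possible because the groups compared share no animal numbers. The reversed LOY values were Gclc (-0.024) and Gpx4 (-0.052) with the animal number above 10 as a term, Gclc (-0.16), Gpx4 (-0.081), Gclm (-0.063) and Keap1 (0.040) in animals above 10 alone, where 1 Control and 4 LOY animals are dropped, and Nfe2l2 without LOY animal 10 or 18, where leaving out single kidneys gave -0.012 to 0.17. With ABT-263 they were Nfe2l2 (0.011) and Keap1 (-0.0073) without control-compound animal 6 and ABT-263 animal 16, and Gclc without control-compound animal 9 or 10 or ABT-263 animal 15 or 18, where single kidneys gave -0.26 to 0.068.

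The 176 LOY genes past the threshold became 105 with totals alone, 866 in DESeq2, 1062 in voom, 549 at an adjusted p of 0.1, 0 with the number term (1194 at an unadjusted p under 0.05), 451 in animals above 10 alone, 29 without LOY animals 8 and 10, and 1121 without LOY animal 8 and Control animal 3. Leaving out single kidneys gave 0 to 607: 607 without Control animal 3, 0 to 9 without any other Control animal, 1, 96, 116 and 296 without LOY animals 10, 9, 14 and 18. Of the 10 genes, 1, Hmox1, passed in DESeq2 and in voom. In edgeR it passed in animals above 10 alone (0.84, adjusted p = 0.000603) and without LOY animal 8 and Control animal 3 (0.85, adjusted p = 0.00115). Leaving out single kidneys gave 0 to 1. Every edgeR fit that Hmox1 passed left out Control animal 3, LOY animal 8 or both, its kidneys nearest to the other group. Of the 88 others, 3 passed in DESeq2, 2 in voom, 1 (Mt2) at 0.1 and 5 without LOY animal 8 and Control animal 3; single kidneys gave 0 to 1 (Gsta1, without Control animal 3).

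The 0 genes with ABT-263 became 44 in DESeq2, 11 in voom and 388 without control-compound animal 6 and ABT-263 animal 16; single kidneys gave 0 to 9 (9, 3 and 1 without control-compound 6, ABT-263 16 and ABT-263 18). Of the 10 genes, 1 passed in DESeq2 and 2 (Txnrd1, adjusted p = 0.0199 in edgeR, and Hmox1) without both animals, and 0 without any single kidney. For Hmox1 both animals hold the extreme values against the rest, so its passing there is no support. Of the 88 others, 1 passed in DESeq2 and 3 (Cbr3, Osgin1, Slc40a1) without both; single kidneys gave 0 to 1 (Osgin1, -1.17, adjusted p = 7.20e-05, without control-compound 6). The cause of these shifts was not tested. Depth limited Slc7a11 alone of the 10.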
